A study of Mus musculus with 9 samples.

Results

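The miR-15, miR-16 and miR-195 family was followed through a small RNA sequencing experiment on mouse serum. Its members were chosen by a rule on miRBase identifiers that took no measured value, but with earlier results of these data known. They are miR-16-5p (MIMAT0000527), miR-15a-5p (MIMAT0000526), miR-15b-5p (MIMAT0000124), miR-195a-5p (MIMAT0000225), miR-322-5p (MIMAT0000548) and miR-497a-5p (MIMAT0003453). These are 6 of the 876 mature miRNAs with at least 1 count in any library, and all 6 were counted in every control and every beads-depleted library. The experiment asked how the removal of 5′ tRNA fragments, cleaved pieces of tRNA that fill small RNA libraries of mouse serum, changes what is read of the miRNAs. For the family the question was whether its members keep their levels relative to the other miRNAs and to each other.

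Serum came from healthy 129/SVj mice, male and female pooled, between 2 and 9 months of age. By the labels, the RNA of each of 3 serum pools (A, B and C) was split into 3 fractions. Control fractions were not depleted. Beads-depleted fractions had the tRNA fragments captured by biotinylated DNA probes on streptavidin magnetic beads, and RNase H-depleted fractions were hybridized to the same kind of probes and digested with RNase H, an enzyme that cuts RNA paired with DNA. All fractions received the same TruSeq library preparation and no group carried a genetic change. The depleted fractions were also heated, hybridized and precipitated with ethanol, and the RNase H-depleted fractions were treated with DNase I. No such handling is described for control, so depletion and its handling steps cannot be told apart. The labels speak of 3 pools of serum, whereas the extraction protocol describes 200 µl aliquots of a pool from 3 mice. By that protocol the letters stand for aliquots of the same pool. Each SD and p-value below would then measure technical spread only, and a count of pools would be a count of aliquots.

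miRNAs are small RNAs that guide Argonaute proteins to messenger RNAs, mainly through pairing of the seed, the bases near the 5′ end. Members of the miR-15/16 family share a seed, are counted as 1 targeting family, and are known to restrain cell cycle genes such as cyclins and the survival gene Bcl2. miR-16 is abundant in red blood cells and other blood cells and is often used as a reference in serum and plasma, while miR-195, miR-497 and miR-322 are studied mostly in muscle, heart and other solid tissues.

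The mature sequences show how far the members are alike and where reads can tell them apart. They are printed in order of abundance from the RefSeq miRNA table (GRCm38.p6), where all 6 were found, with bases 2 to 8, the seed, in capitals.
miR-16-5p: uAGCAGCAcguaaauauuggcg
miR-15a-5p: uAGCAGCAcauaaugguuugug
miR-15b-5p: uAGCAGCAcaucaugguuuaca
miR-497a-5p: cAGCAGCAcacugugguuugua
miR-195a-5p: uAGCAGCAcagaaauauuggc
miR-322-5p: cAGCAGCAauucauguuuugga

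The 6 members hold 1 seed, AGCAGCA, and differ in the bases after it. miR-16-5p and miR-195a-5p were the closest pair, identical at 19 of the 21 positions compared, with the substitutions G10A and U11G (miR-16-5p base first, positions counted from 1 at the 5′ end). miR-15a-5p and miR-15b-5p were identical at 18 of 22 positions and differed by A12C, G20A, U21C and G22A (miR-15a-5p base first). The fewest identical positions, 11, were found between miR-16-5p and miR-497a-5p (of 22 compared) and between miR-195a-5p and miR-322-5p (of 21). Reads were mapped without mismatches and had at least 15 bases. None of the 15 pairs of members shares a run that long, since the longest run common to 2 members is 11 bases. Of the 1679 mature names in the RefSeq table, 10 hold the family seed. The 4 that are not members (miR-195b, miR-6342, miR-6353 and miR-6419) are not analysed here, and miR-195b shares a run of 16 bases with miR-195a-5p, so the shortest reads of these could not be divided between them. miR-503-5p, made beside miR-322-5p, has the seed AGCAGCG.

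Mature miR-16-5p is made from 2 hairpins, and no read of the mature sequence tells them apart. The hairpins are shown from the 5′ end with mature miR-16-5p in capitals. Mir16-1 lies at chr14:61631880-61631972 on the minus strand and Mir16-2 at chr3:69009902-69009996 on the plus strand of GRCm38.p6.
Mir16-1: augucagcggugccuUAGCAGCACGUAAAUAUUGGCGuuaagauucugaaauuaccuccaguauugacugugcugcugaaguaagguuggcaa
Mir16-2: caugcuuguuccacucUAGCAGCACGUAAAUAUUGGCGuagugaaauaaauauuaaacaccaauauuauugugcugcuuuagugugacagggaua

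Each hairpin has a neighbour that makes another member. Mir15a and Mir16-1 sit in an intron of the non-coding gene Dleu2 on chromosome 14, with 139 bases between the 5′ ends of their mature miRNAs. Mir15b and Mir16-2 sit in an intron of Smc4, which codes for a condensin subunit, on chromosome 3, with 143 bases between them. Mir497 and Mir195a lie 332 bases apart on chromosome 11 (mature sequences at chr11:70234730-70234751 and chr11:70235062-70235082, plus strand). Mir322 lies 278 bases from Mir503 on chromosome X (mature miR-322-5p at chrX:53054306-53054327, minus strand). Neither of these last loci overlaps another gene of the GENCODE M21 annotation.

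The deposited values were raw counts per mature miRNA. A level is given here as CPM, counts per 1000000 miRNA counts of the library, so that it is relative to all other miRNAs and not an amount in serum. Control libraries held 205185 to 330676 miRNA counts, beads-depleted libraries 1822088 to 1995956 and RNase H-depleted libraries only 1199 to 2040. miRNAs made up 4.92% to 6.72% of all annotated counts in the control libraries, 51.5% to 71.4% after beads and 1.27% to 4.18% after RNase H. At this depth 3 counts correspond to 0.147% to 0.250% of the miRNA counts of an RNase H library, so that only the abundant members can be measured there.

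miR-16-5p carried nearly all of the family in every library. It had 28190, 45427 and 33450 counts in control libraries A, B and C, and 208494, 216007 and 192676 counts in the beads-depleted libraries. These are 137388, 137376 and 134502 CPM in control and 108222, 108222 and 105745 CPM after beads. All 3 control levels were above all 3 beads levels. miR-16-5p ranked at 1 among all miRNAs in each control library and at 3 in each beads-depleted library. In the RNase H libraries 130, 223 and 125 counts were left, which are 63725, 112797 and 104254 CPM. All 3 of these were below the lowest control library, while 1 (B) was above the beads-depleted libraries.

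miR-15a-5p, made from the hairpin next to Mir16-1, was the next member in abundance. Its counts were 967, 1651 and 1348 in control (4713, 4993 and 5420 CPM) and 7281, 8112 and 6231 after beads (3779, 4064 and 3420 CPM). The ranges of the groups did not overlap, and control was the higher group. The RNase H libraries had 11, 7 and 7 counts (5392, 3541 and 5838 CPM), which spanned the control range.

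miR-15b-5p, the partner of Mir16-2, had 61, 134 and 110 counts in control (297, 405 and 442 CPM) and 751, 942 and 689 after beads (390, 472 and 378 CPM). Here the groups overlapped, and library B was the highest of the beads-depleted libraries while C was the highest control. A single count, in library B, was found after RNase H.

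The remaining members were rare. miR-497a-5p had 30, 40 and 41 counts in control (146, 121 and 165 CPM) and 307, 314 and 272 after beads (159, 157 and 149 CPM). miR-195a-5p, made from the same cluster, had 21, 18 and 20 counts in control (102, 54.4 and 80.4 CPM) and 200, 228 and 178 after beads (104, 114 and 97.7 CPM). miR-322-5p had 15, 18 and 14 counts in control (73.1, 54.4 and 56.3 CPM) and 162, 102 and 127 after beads (84.1, 51.1 and 69.7 CPM). Control and beads-depleted ranges overlapped for all 3 of these. After RNase H only miR-497a-5p was seen, with 2 counts in library C.

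The order of mean levels was the same in control and after beads. From the top it ran miR-16-5p, miR-15a-5p, miR-15b-5p, miR-497a-5p, miR-195a-5p and miR-322-5p. In control the means were 136422 ± 1663, 5042 ± 356, 382 ± 75.3, 144 ± 22.0, 79.1 ± 24.0 and 61.3 ± 10.3 CPM (SD, n = 3). The only neighbours whose ranges overlapped were miR-195a-5p and miR-322-5p in control, where both had 54.4 CPM in library B. After beads no neighbours overlapped, at means of 107396 ± 1430, 3754 ± 323, 413 ± 51.1, 155 ± 5.33, 105 ± 8.36 and 68.3 ± 16.5 CPM (SD, n = 3). Mean miR-16-5p was 27.1 times miR-15a-5p in control and 28.6 times after beads. Reads were ligated to adapters and amplified by PCR, which differ in efficiency between sequences, so levels of different members are not ratios of molecules.

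**Figure D1:**
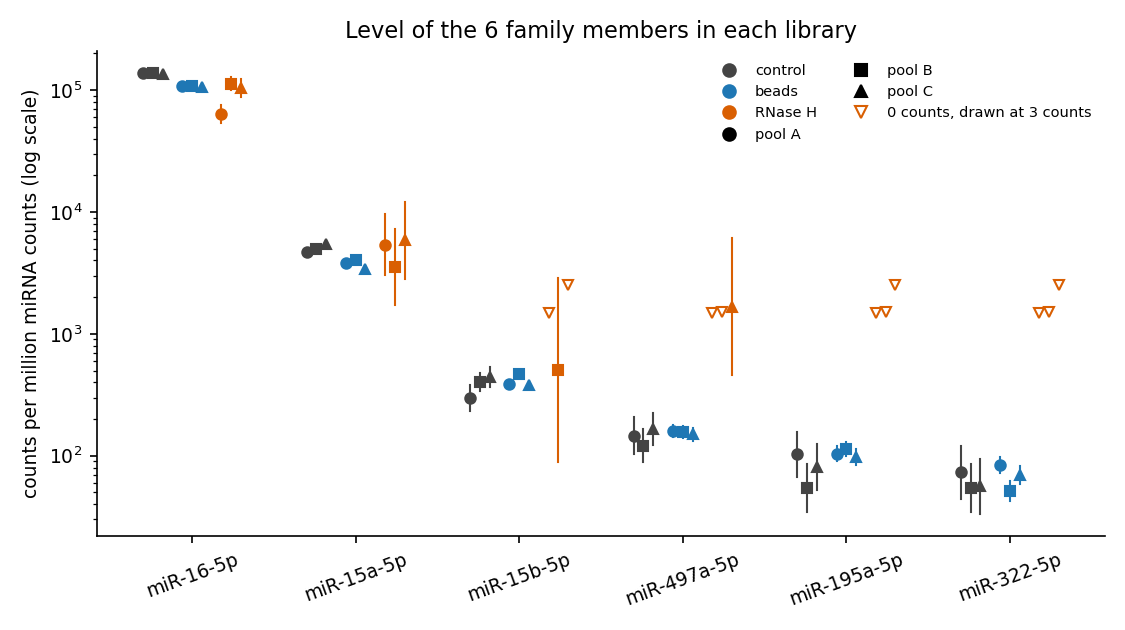
Level of each member in CPM of the miRNA counts (log axis), with 1 point per library, the pool by its shape and the group by its colour, and bars for the Wilson 95% interval. miR-16-5p and miR-15a-5p have control points above all beads points, the ranges of the other members overlap, and RNase H libraries with 0 counts are open triangles drawn at the level of 3 counts.

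Together the members took 14.2% ± 0.128 of the miRNA counts in control, 11.2% ± 0.177 after beads and 9.92% ± 2.62 after RNase H (SD, n = 3). The control libraries lay between 14.1% and 14.3%, the beads-depleted libraries between 11.0% and 11.3%, and the RNase H libraries between 6.91% and 11.7%. miR-16-5p accounted for 96.0% of the family counts in control, 96.0% after beads and 94.0% after RNase H, and the family total is therefore mostly a measure of that miRNA. With miR-16-5p left out of both the family and the total, the other members held 0.661% ± 0.0476, 0.504% ± 0.0424 and 0.623% ± 0.195 of the remaining miRNA counts (SD, n = 3 each). As a share of all annotated counts the family held 0.249% ± 0.212 after RNase H, 0.853% ± 0.134 in control and 6.74% ± 1.23 after beads (SD, n = 3), the order of the miRNA share itself.

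After depletion with beads the 2 most abundant members fell as a share of the miRNAs, and no other member passed the test. miR-16-5p was lower than in control by a log2 fold change of -0.34 ± 0.051 (SE, n = 3 per group), a fold of 0.791, with an adjusted p of 5.51e-10 in the quasi-likelihood test of edgeR. miR-15a-5p was lower by a similar size, -0.42 ± 0.076 on the log2 scale, a fold of 0.747 (adjusted p 2.44e-07, edgeR). Both were lower in 3 of 3 pools. miR-195a-5p had a log2 fold change of 0.48 ± 0.22 with an adjusted p of 0.0956 (edgeR; unadjusted p 0.0311), and its share was higher in 3 of 3 pools. That value was 0.17 without pool B in both groups and 0.22 without control replicate B, with adjusted p of 0.768 and 0.712 (edgeR). miR-15b-5p (0.10 ± 0.13, adjusted p 0.640), miR-322-5p (0.19 ± 0.25, adjusted p 0.665) and miR-497a-5p (0.13 ± 0.18, adjusted p 0.665) did not pass either (edgeR, log2 ± SE).

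Thus 2 of 6 members were called, both lower. Of all 307 miRNAs tested 82 were called, which is 26.7%, with 51 higher and 31 lower. The median log2 fold change was 0.12 over the 6 members and 0.04 over all tested miRNAs. Among those 307, 57 had a lower log2 fold change than miR-16-5p and 41 a lower one than miR-15a-5p. Counting precision differs greatly between members, as the SE of miR-322-5p was 0.25 against 0.051 for miR-16-5p, and a change of the size seen for miR-16-5p could not have been told from the replicate spread for miR-322-5p. When the library size was taken as all annotated counts, the median of all miRNAs moved to a log2 fold change of 3.37 and all 6 members were higher than control. Relative to that median miR-16-5p stood at -0.39 and miR-15a-5p at -0.46, against -0.38 and -0.46 relative to the median with miRNA counts as library size.

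**Figure D2:**
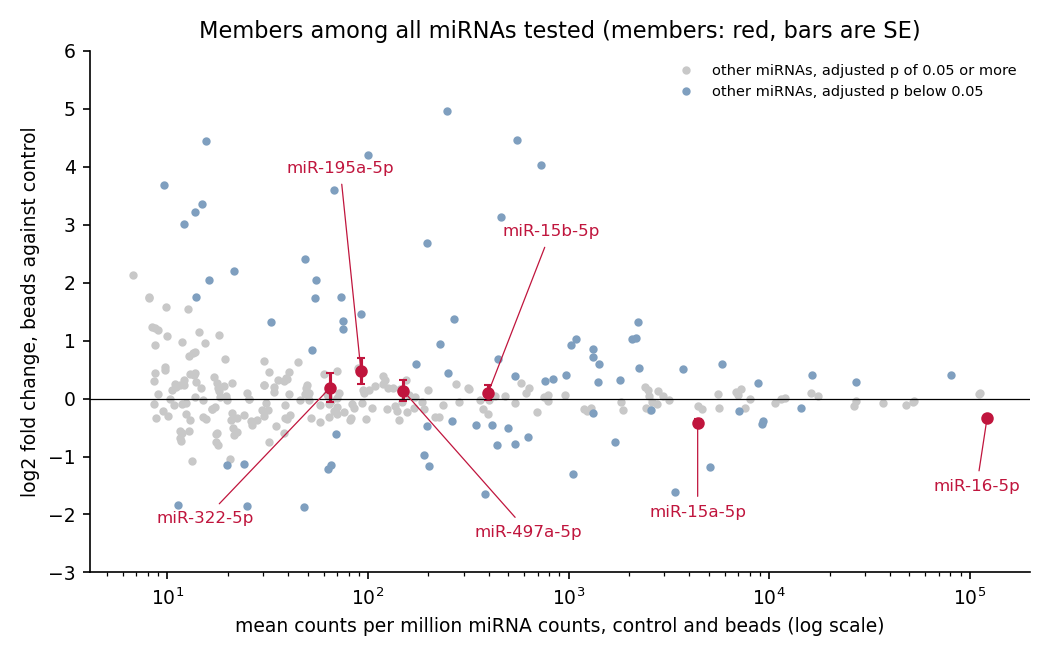
Log2 fold change of beads against control (y axis, from edgeR) over the mean level in CPM of the miRNA counts (x axis, log scale) for all 307 miRNAs tested, with the 6 members in red and bars for their SE. miR-16-5p lies farthest to the right at -0.34 and miR-15a-5p at -0.42, the 4 rarer members lie above 0, and 1 miRNA is outside the plotted range.

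Since control and beads-depleted fractions came from the same RNA, each pool gives its own ratio. For miR-16-5p the share after beads was 0.788, 0.788 and 0.786 times that in control in pools A, B and C. The 3 pools were nearly alike in this ratio. For miR-15a-5p the ratios were 0.802, 0.814 and 0.631, with pool C the lowest. Ratios of 3 other members lay on both sides of 1. miR-15b-5p had 1.31, 1.16 and 0.855, miR-497a-5p 1.09, 1.30 and 0.905, and miR-322-5p 1.15, 0.939 and 1.24. miR-195a-5p had 1.01, 2.10 and 1.21, all above 1, where the ratio in pool B rests on the lowest control level of that miRNA, 18 counts.

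In raw counts every member was above control after beads in each pool. All miRNA counts together were 9.39, 6.04 and 7.33 times control in pools A, B and C. miR-16-5p counts were 7.40, 4.76 and 5.76 times control, below that factor in each pool. miR-195a-5p counts were 9.52, 12.7 and 8.90 times control, above it in each pool.

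**Figure D3:**
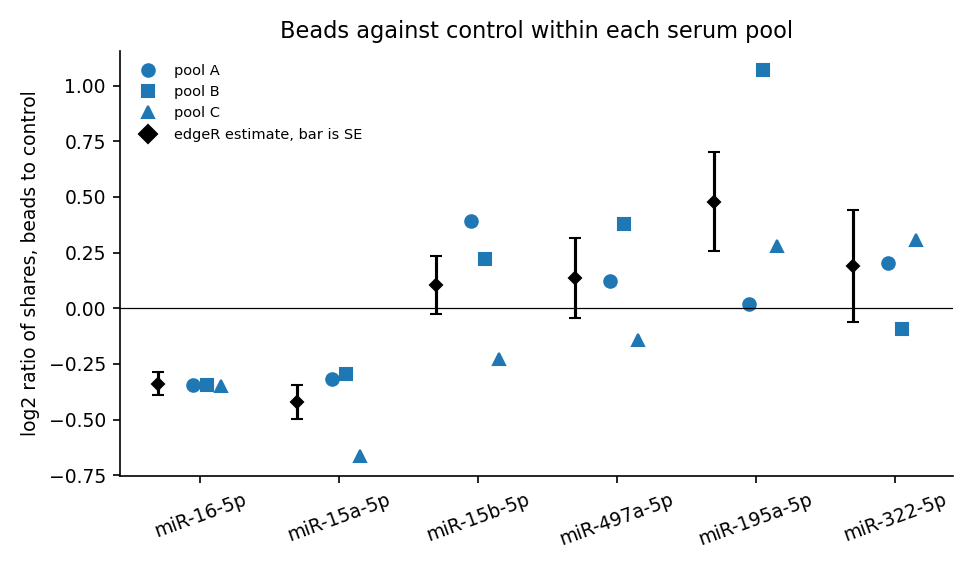
Log2 ratio of the share of miRNA counts after beads to that in the control library of the same pool (y axis) for each member, with 1 blue point per pool and a black diamond with SE for the edgeR estimate. The 3 pools of miR-16-5p coincide around the estimate of -0.34, all 3 pools of miR-15a-5p lie below 0, and the rarer members spread on both sides of 0 or, for miR-195a-5p, above it.

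A ratio between 2 members in 1 library does not depend on how the library was scaled. miR-16-5p and miR-15a-5p, are neighbours on chromosome 14. Their ratio was 29.2, 27.5 and 24.8 in control and 28.6, 26.6 and 30.9 after beads, and the difference in mean log2 ratio was 0.08 (two-sided exact permutation p 0.5, n = 3 per group). The ratios of the groups overlapped.

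The ratio of miR-16-5p to miR-15b-5p, its neighbour on chromosome 3, was 462, 339 and 304 in control and 278, 229 and 280 after beads, with no overlap and a mean log2 difference of -0.47. miR-15a-5p to miR-15b-5p, from different chromosomes, went from 15.9, 12.3 and 12.3 to 9.70, 8.61 and 9.04, a mean log2 difference of -0.55 with no overlap. miR-16-5p to miR-195a-5p, the closest pair in sequence, went from 1342, 2524 and 1672 to 1042, 947 and 1082, a mean log2 difference of -0.77 (-0.47 without pool B). The exact permutation p was 0.1 for each of these 3 ratios (n = 3 per group), which is the smallest that 20 assignments of the libraries allow, and 0.167 after Benjamini-Hochberg adjustment over the 5 ratios. No ratio could therefore pass a threshold of 0.05. The ratio of miR-195a-5p to its cluster partner miR-497a-5p differed by 0.32 on the log2 scale with overlapping groups (exact permutation p 0.3, n = 3 per group).

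The same comparison was then made for the remaining members without a test, since it was chosen after the values above had been seen. miR-16-5p to miR-322-5p differed by -0.44 on the log2 scale with overlapping groups, and miR-16-5p to miR-497a-5p by -0.45 with groups that did not overlap. miR-16-5p was thus lower in 3 of 3 pools against each of the 4 rarer members. miR-15b-5p, miR-195a-5p, miR-322-5p and miR-497a-5p all enter these ratios with miR-16-5p, whose lower share after beads they have in common.

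**Figure D4:**
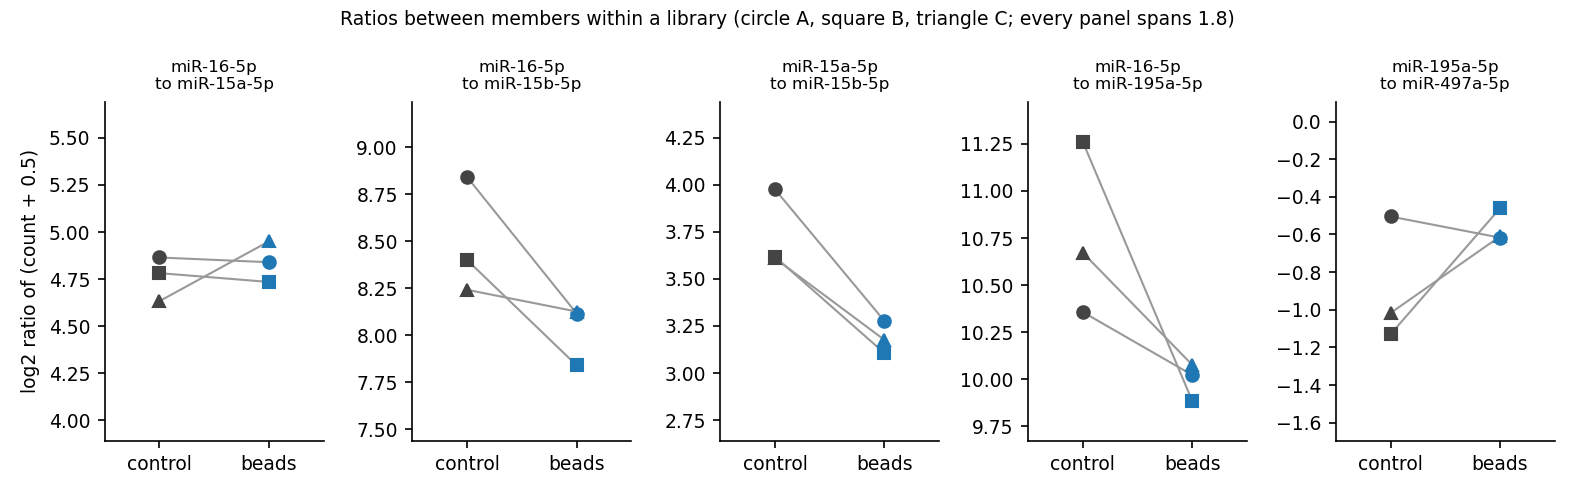
Log2 ratio of counts + 0.5 between pairs of members (y axis, the same span in each panel) in control and beads libraries, with 1 point per library and a line joining the libraries of a pool. The ratio of miR-16-5p to miR-15a-5p overlaps between the groups, while those of miR-16-5p to miR-15b-5p and to miR-195a-5p and of miR-15a-5p to miR-15b-5p lie lower after beads in all libraries.

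After RNase H the family was reduced to 506 counts over the 3 libraries, out of 5216 miRNA counts. No member was called in edgeR in either comparison of these libraries, and DESeq2 called miR-16-5p against control. Against control, 4 members passed the filter on low counts (miR-195a-5p and miR-322-5p did not). Of these, miR-15b-5p and miR-497a-5p passed it through their control counts and had 1 and 2 counts after RNase H. The SE of their log2 fold changes were 1.42 and 1.30, so their tests could say little. None of the 4 passed the test in edgeR, although 1 had an unadjusted p below 0.05. That member was miR-16-5p, with a log2 fold change of -0.65 ± 0.21 (SE, n = 3 per group, adjusted p 0.0575, edgeR) and a lower share in 3 of 3 pools. Its share was 0.464, 0.821 and 0.775 times that of the control of the same pool, so that library A stood apart from B and C. miR-15a-5p had a log2 fold change of -0.19 ± 0.27 (adjusted p 0.776, edgeR) and was at 1.14, 0.709 and 1.08 times the control share. Of all 138 miRNAs tested 16 were called, 11.6%.

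Whether miR-16-5p was called depended on single libraries and on the tool. DESeq2 called it (log2 fold change -0.47, adjusted p 0.0257) and called no other member, beside 27 of 240 miRNAs in all, or 11.2%. The median log2 fold change over 574 miRNAs was 3.83 in DESeq2 and -1.23 in edgeR with no filter. The cause of this difference was not tested, and an RNase H library listed only 98 to 113 of these miRNAs. The 2 tools were closer for the members counted in every library. DESeq2 and edgeR with no filter gave -0.47 and -0.72 for miR-16-5p, and 0.03 and -0.25 for miR-15a-5p. miR-16-5p was also called in edgeR with no filter on low counts (-0.72, adjusted p 0.00509) and in a joint fit of the 3 groups (-0.68, adjusted p 0.000171). It passed in edgeR without RNase H replicate A (-0.40, adjusted p 0.000462), without RNase H replicate B (-0.61, adjusted p 0.00512) and without pool B in both groups (-1.04, adjusted p 1.21e-08). It did not pass without pool A in both groups (-0.30, adjusted p 0.0854), without pool C in both groups (-0.91, adjusted p 0.151) or without RNase H replicate C (-0.80, adjusted p 0.129). Without control replicate A, B or C, where 33 or 34 miRNAs were left to test in edgeR, it stood at -0.34, -0.34 and -0.35 (adjusted p 0.322, 0.420 and 0.437).

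The counts were also set beside those that the control shares would give. If the RNase H libraries had held the pooled control share, 712 counts of miR-16-5p would stand where 478 were found, a ratio of 0.672 (exact Poisson interval 0.613 to 0.735 at 95%, counting error only). For miR-15a-5p 25 counts were found against 26.4, a ratio of 0.948 (0.613 to 1.40). For miR-15b-5p 1 count was found where the control share gives 2.03, and for miR-497a-5p 2 counts where it gives 0.738. miR-195a-5p and miR-322-5p were not detected, where the control share gives 0.392 and 0.312 counts. At the floor of 3 counts, 0 of 5216 allows a share of up to 0.0575% (the two-sided exact 95% interval reaches 3.69 counts), above the pooled control shares of 0.00752% for miR-195a-5p and 0.00599% for miR-322-5p, so that neither a loss of these nor a gain that stays under the floor was detectable at this depth.

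**Figure D5:**
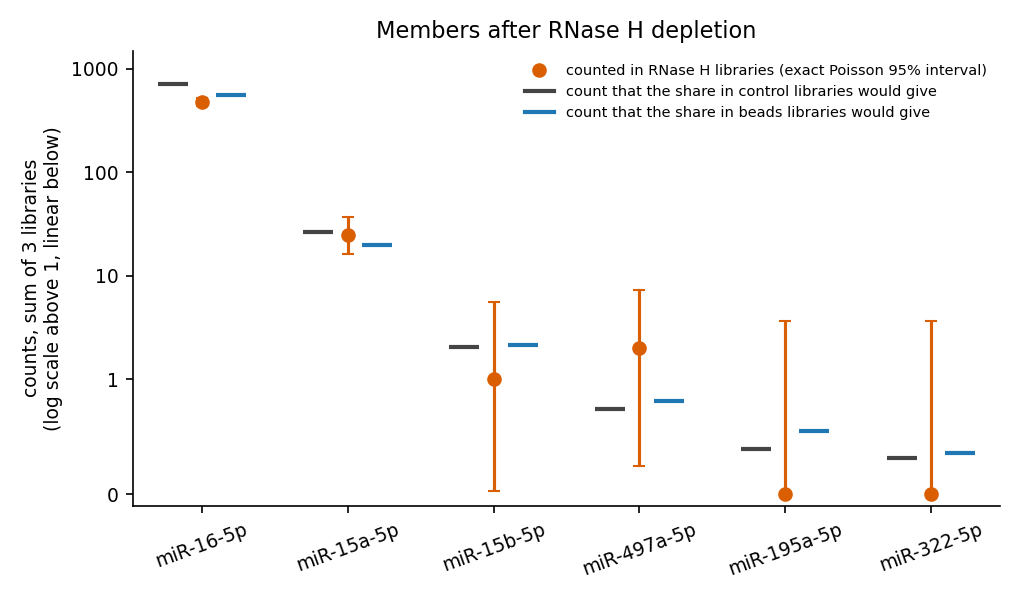
Counts of each member summed over the 3 RNase H libraries (points on a log axis that is linear below 1, bars are exact 95% Poisson intervals for counting error only) beside the counts that the pooled control and beads shares would give at the same depth. miR-16-5p lies at 478, below both references of 712 and 560, and the intervals of the other members hold both references.

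Against beads-depleted libraries, all 6 members passed the edgeR filter on low counts, and none was called in edgeR or in DESeq2. Of these, miR-195a-5p and miR-322-5p had 0 counts after RNase H, where the pooled beads share gives 0.550 and 0.355. miR-15b-5p and miR-497a-5p had 1 and 2 counts, where it gives 2.16 and 0.811. All of these rare members passed the filter through their beads counts. With miRNA counts as library size their tests could not have shown a loss. In edgeR 1 member had an unadjusted p below 0.05. miR-16-5p had a log2 fold change of -0.37 ± 0.17 (SE, n = 3 per group, adjusted p 0.293, edgeR) and miR-15a-5p 0.20 ± 0.32 (adjusted p 0.776). The median over all 263 tested miRNAs was -0.85, and 168 of them had a lower log2 fold change than miR-16-5p. An RNase H library listed only 98 to 113 miRNAs, so many of the 263 had at least 1 RNase H library at 0. This median and rank therefore depend on depth. Of all miRNAs tested edgeR called 10 of 263, or 3.8%, and DESeq2 406 of 838, or 48.4%, so the background depended on the tool. Over 838 miRNAs the median was 5.73 in DESeq2 and -2.66 in edgeR with no filter. miR-16-5p was called lower without pool B in both groups (-0.57, adjusted p 0.00398) and without RNase H replicate B (-0.70, adjusted p 1.10e-06), and stood at 0.03 without beads replicate B, where far fewer miRNAs passed the filter on low counts. The median of all tested miRNAs was -6.66 without pool B and -6.42 without RNase H replicate B. These medians, over 267 and 351 miRNAs, also include miRNAs with no RNase H counts. They do not tell whether miR-16-5p stood higher or lower than the miRNAs that were counted there. No fold change is given for the other members, which had at least 1 RNase H library at 0. This comparison and the comparison with control share the RNase H libraries and are not independent.

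The ratio of miR-16-5p to miR-15a-5p was 11.8, 31.9 and 17.9 in the RNase H libraries. Library B was above and libraries A and C below all control and beads-depleted libraries. The mean log2 difference was -0.60 against control (exact permutation p 0.4) and -0.69 against beads (exact permutation p 0.3, n = 3 per group), with overlapping groups in both. These ratios rest on 7 to 11 counts of miR-15a-5p per library.

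Within a group the members varied by more than counting in several cases. A chi-square test of the 3 beads-depleted libraries gave a value per degree of freedom of 39.8 for miR-16-5p and 52.8 for miR-15a-5p, although the SD of miR-16-5p was only 1430 of 107396 CPM. In control the same values were 5.97 and 5.81. For the rare miR-497a-5p they were 0.989 in control and 0.340 after beads, no more than counting gives. No 2 libraries of a group agreed within sampling noise over all miRNAs, where the lowest chi-square per degree of freedom was 1.37.

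miRNAs with a pattern like that of miR-16-5p were ranked by the root mean square difference of the log2 share over the libraries, after the mean of each miRNA was removed. Over all 9 libraries only 19 miRNAs had at least 10 counts in every library and could be compared. The nearest were MIMAT0000648 (0.129), MIMAT0000208 (0.141) and MIMAT0000539 (0.216), against a median of 0.324, and the files do not pair these identifiers with names. No other member reached this count. Over the 6 control and beads-depleted libraries, a set chosen after the data were seen, 169 miRNAs were compared and miR-15a-5p was the nearest member, at rank 12 with a difference of 0.101. miR-497a-5p (rank 98), miR-15b-5p (rank 111), miR-322-5p (rank 124) and miR-195a-5p (rank 149) were farther than the median miRNA, at 0.271 to 0.485 against 0.255. Rare miRNAs differ more in this measure through counting error, and all points share the same libraries.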

How the data were processed

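Small RNA libraries (TruSeq) were sequenced from 3 control, 3 beads-depleted and 3 RNase H-depleted RNA fractions of mouse serum. The authors trimmed adapters with Cutadapt 1.8.1, kept reads of at least 15 bases that passed a quality filter, mapped them to GRCm38 with Bowtie 1.1.2 without mismatches and counted them over miRBase miRNAs. The deposited values are raw counts of reads per mature miRNA, and a second file per library holds raw counts of other small RNA sequences, used here only for the total of all annotated counts. Mapping without mismatches drops reads with untemplated ends. Replicates were not pooled in the edgeR, DESeq2 and permutation tests. Counts were summed over the 3 libraries of a group for the pooled shares and the Poisson intervals after RNase H.

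A library lists only miRNAs with counts, and those not listed were set to 0. For tests on counts the quasi-likelihood method of edgeR 4.0.16 (R 4.3.3) was used with TMM normalization, filterByExpr and a Benjamini-Hochberg adjusted threshold of 0.05 over all miRNAs tested. The library size was the sum of miRNA counts, and a fit held the libraries of 2 groups. CPM here means counts scaled to 1000000 miRNA counts. The code was checked on simulated counts. DESeq2 1.42.0 was an alternative. Log2 ratios were computed from counts + 0.5 and compared with two-sided exact permutation tests (SciPy 1.17.1, Python 3.11.15). Poisson and Clopper-Pearson intervals, and the floor of 3 counts, cover counting error only, since reads carry no molecular identifiers. Serum RNA comes from many cells, so that fewer cells of a type and less RNA per cell cannot be told apart.

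The pools pair the libraries, since the labels say that the RNA of 1 pool was divided into 3 fractions. Deviations from the group means correlated at 0.174, 0.055 and 0.039 between beads-depleted and control libraries of pools A, B and C. The members and the lists were chosen with earlier results of these data known. The rule for named miRNAs took the 6 members, their passenger strands, cluster partners, other miRNAs with the same seed, miR-103-3p and miR-107-3p, and the 3 miRNAs most like miR-16-5p. The files hold identifiers without names, and no table used here pairs them, so passenger strands, miR-503-5p, miR-103-3p, miR-107-3p, other miRNAs with the seed and the lists of miRNAs of red cells, leukocytes, platelets, liver, endothelium and muscle are not analysed here. Hemolysis was measured per the labels, and its values are not used here.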

Additional observations from a re-analysis of the deposited data

How the results depend on the processing

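Among 16 alternatives for beads against control, miR-16-5p and miR-15a-5p were called lower in 15, with log2 fold changes of -0.38 to -0.30 and -0.48 to -0.31. The exception was all annotated counts as library size, which called all 6 members higher (2.98 for miR-16-5p and 2.90 for miR-15a-5p). That setting called 2 members against control after RNase H and 6 against beads (-4.61 for miR-15a-5p), and it called 332, 51 and 250 of all miRNAs in the 3 comparisons in place of 82, 16 and 10. The number of members called after RNase H against control was 0, and became 1 under normalization without the members, with no filter, in DESeq2 and in a joint fit of the 3 groups. Leaving out libraries gave 0 to 1 against control and 0 to 1 against beads. DESeq2 called 27 and 406 of all miRNAs in these comparisons, no TMM called 5 against beads, and leaving out libraries gave 4 to 30 and 1 to 22. The cause was not tested, except that leaving out a control or beads-depleted library in the RNase H comparisons left only 33 or 34 miRNAs past the filter on low counts.

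Under DESeq2 the log2 fold change after RNase H turned to 0.032 for miR-15a-5p against control and 0.0023 for miR-16-5p against beads. The DESeq2 medians of all miRNAs in these comparisons were 3.83 and 5.73, over 574 and 838 miRNAs, whereas an RNase H library listed only 98 to 113. miR-195a-5p and miR-322-5p, not detected after RNase H, had positive DESeq2 values in both comparisons. These medians are therefore no background for members that were counted after RNase H. Leaving out libraries gave -0.023 to 0.27 for miR-15b-5p, -0.011 to 0.27 for miR-497a-5p, 0.17 to 0.71 for miR-195a-5p and 0.019 to 0.36 for miR-322-5p after beads, -0.36 to 0.31 for miR-15a-5p and -1.04 to -0.30 for miR-16-5p after RNase H against control, and -0.70 to 0.031 for miR-16-5p after RNase H against beads. The ratio of miR-16-5p to miR-15a-5p after beads spanned -0.036 to 0.15, and that of miR-16-5p to miR-195a-5p -0.99 to -0.47, when 1 pool was left out.

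The difference in family share was -3.02 percentage points after beads, -4.29 after RNase H against control and -1.27 after RNase H against beads. As shares of all annotated counts these were 5.88, -0.605 and -6.49. With miR-16-5p left out of both the family and the miRNA total they were -0.157, -0.0376 and 0.120. Leaving out libraries gave -2.09 to 0.283 for RNase H against beads.

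With the replicate block, members called stayed at 2, 0 and 0 in the 3 comparisons, miR-16-5p after beads had a log2 fold change of -0.34, and 6 in place of 10 of all miRNAs were called after RNase H against beads. The ratios of miR-16-5p and miR-15a-5p to miR-15b-5p, taken within pools, were lower in 3 of 3 pools (exact sign-exchange permutation p 0.25, the smallest that 3 pools allow). Depth limits miR-15b-5p, miR-195a-5p, miR-322-5p and miR-497a-5p to control and beads-depleted libraries. The planned ratios of miR-322-5p to miR-503-5p and of guide to passenger strands were not run, since the partners were not matched by name.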
